A study of Mus musculus with 6 samples.

Results

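Collagens and the interstitial matrix were examined as a set of 41 genes, out of 23030 mouse genes with a gene model and a RefSeq name. The genes were chosen by what they encode: fibrillar, basement membrane and microfibrillar collagens, fibronectin and elastic fibre proteins, small leucine-rich proteoglycans, matricellular proteins, and the enzymes and inhibitors that mature or degrade the matrix. The rule that lists them uses no measured value, although earlier results of these data were known when it was written, and all 41 were found in the annotation of mm9, the genome build of the files. The data were 6 libraries of chromatin immunoprecipitation followed by sequencing (ChIP-seq), with 2 libraries each for Sox6, for RNA polymerase II (Pol II) and for input, the chromatin sequenced without an antibody. All came from wild-type C57BL/6 primary myoblasts of E18.5 (embryonic day) limbs, expanded to passage 17, then differentiated into myotubes for 48 hours in DMEM with 2% horse serum and fixed with DSG and formaldehyde. The Sox6 antibody was a rabbit polyclonal, and the Pol II antibody was clone 4H8, raised against the repeat of the C-terminal domain. No library came from cells without Sox6 and none from myoblasts before differentiation, so input was the only reference.

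The interstitial matrix is the network outside cells that carries load between them. Fibrillar collagens form its ropes, basement membrane collagens and perlecan sheathe each muscle fibre, and in skeletal muscle fibroblasts are known as the main makers of the interstitial part. Newly made collagen chains are folded in the endoplasmic reticulum with the help of hydroxylases and of the chaperone Serpinh1, and are cross-linked outside the cell by lysyl oxidases. Sox6 is a transcription factor that binds DNA through an HMG box and is known in fetal muscle for holding down slow fibre genes. Pol II over a gene body is read here as the level of the enzyme on the gene, not as the amount of RNA.

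The Pol II libraries held 1538757 and 2762155 mapped reads, the Sox6 libraries 2985437 and 1468604, and the input libraries 21973495 and 24249850. Muscle genes carried Pol II: 20 of 20 on a fixed list were higher than input, as were 6 of 6 housekeeping genes, and the muscle genes had a summed level of 648 and 697 reads per kb of gene per 1000000 mapped reads (RPKM) in Pol II replicates 1 and 2 against 16.1 and 16.8 in input. Ratios to input depended on the scaling. Reads more than 20 kb from any gene and off every peak made up 11.7% and 11.1% of the Pol II libraries against 31.3% and 30.4% of input, and setting those reads equal in place of library size raised the Pol II log2 ratio of the median gene by 1.44 over gene bodies. Log2 ratios below are scaled to library size unless stated, and a member is called higher or lower than input where limma's adjusted p was under 0.05.

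The sequences under Sox6 peaks near members are shown first, because they are where the antibody signal was strongest at these genes. Of the common Sox6 peaks, those the authors listed for both replicates, 9 lay in or within 20 kb of 6 members (14.6%, against 4.29% of all genes). The 6 windows of 150 bases below are centred on the peak with the highest Sox6 signal, on both peaks of Col4a2, and on those of Ltbp1, Timp2 and Col1a2. They do not follow the order of signal: the second intron 2 peak of Col25a1, at a log2 ratio of 4.005, is not shown. The windows shown are written on the forward strand of mm9. Capitals mark matches on either strand to a Sox-like motif (ACAAAG or ACAATG), an E-box of the kind myogenic factors bind (CAGCTG or CAGGTG), a Runx-like motif (CCACA) or a Tead-like motif (GGAATG), none of which overlapped another.

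Col25a1 intron 2, chr3:129945776-129945925: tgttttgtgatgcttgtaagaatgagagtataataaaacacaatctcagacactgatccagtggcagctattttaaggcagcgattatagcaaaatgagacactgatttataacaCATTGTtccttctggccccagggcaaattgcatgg

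Col4a2 intron 20, chr8:11419416-11419565: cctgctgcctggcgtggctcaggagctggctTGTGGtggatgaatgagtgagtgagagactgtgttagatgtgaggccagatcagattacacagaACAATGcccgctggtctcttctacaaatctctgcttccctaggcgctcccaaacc

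Col4a2 downstream, chr8:11457366-11457515: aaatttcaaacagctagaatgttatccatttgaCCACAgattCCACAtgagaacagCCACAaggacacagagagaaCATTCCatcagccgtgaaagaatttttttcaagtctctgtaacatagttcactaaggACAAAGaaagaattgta

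Ltbp1 intron 5, chr17:75599216-75599365: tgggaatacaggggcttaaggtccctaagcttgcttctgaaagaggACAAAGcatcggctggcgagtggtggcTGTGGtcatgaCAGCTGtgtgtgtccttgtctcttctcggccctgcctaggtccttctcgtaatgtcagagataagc

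Timp2 intron 1, chr11:118210876-118211025: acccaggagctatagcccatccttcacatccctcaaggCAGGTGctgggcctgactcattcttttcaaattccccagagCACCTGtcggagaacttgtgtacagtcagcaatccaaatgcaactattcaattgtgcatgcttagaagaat

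Col1a2 downstream, chr6:4511306-4511455: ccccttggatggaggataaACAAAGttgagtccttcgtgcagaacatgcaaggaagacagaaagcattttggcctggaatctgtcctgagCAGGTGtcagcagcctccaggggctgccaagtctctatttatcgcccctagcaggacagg

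A Sox-like motif was found in 5 of the 9 windows at members, against 51.9% of the windows at all 1066 common peaks. All 5 are among the windows shown. The windows not shown, at Timp3 and at the second intron 2 peak and the intron 30 peak of Col25a1, held no Sox-like match. E-boxes were in 5 of 9 against 56.5%, Runx-like motifs in 5 of 9 against 59.8%, and the Tead-like motif in 1 of 9 against 23.4%. The windows at members therefore held each motif at about the rate of all common peaks or, for Tead, in a single case, the Col4a2 downstream peak. The Timp2 window held 2 E-boxes and no Sox-like match, whereas the strongest Col25a1 window held a single Sox-like match and none of the others.

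Pol II over gene bodies was used to ask which matrix genes the myotube cultures had engaged. Pol II was higher than input over 12 of the 41 members, lower over 18, and not past the threshold for 11. Over all 19877 genes tested, 39.9% were higher and 24.1% were lower, whereas the members' shares were 29.3% and 43.9%, a difference that was not tested. Members were longer, with a median of 49.1 kb against 14.9 kb for all genes. Longer genes hold more reads for a call in either direction, and no share among long genes is given for these calls. The median log2 ratio of members was -0.61 against 0.16 for all genes, and 27 of the 41 lay below that median. With the scaling to background reads the lower calls did not hold: 26 members were higher and 0 lower, against 65.9% and 0.765% of all genes, and the members' median was 0.84 against 1.60. With the median of all genes set to 0 the counts were 10 and 21, against 36.6% and 28.2%. Another scaling shifts all genes by nearly the same amount, so it changes where 0 lies and says nothing about the order of genes. Because all nuclei were pooled, fewer cells of a type and less Pol II per cell cannot be told apart. The libraries were labelled as replicates without naming separate animals, so p-values measure the spread between these samples, which may be technical.

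**Figure D1:**
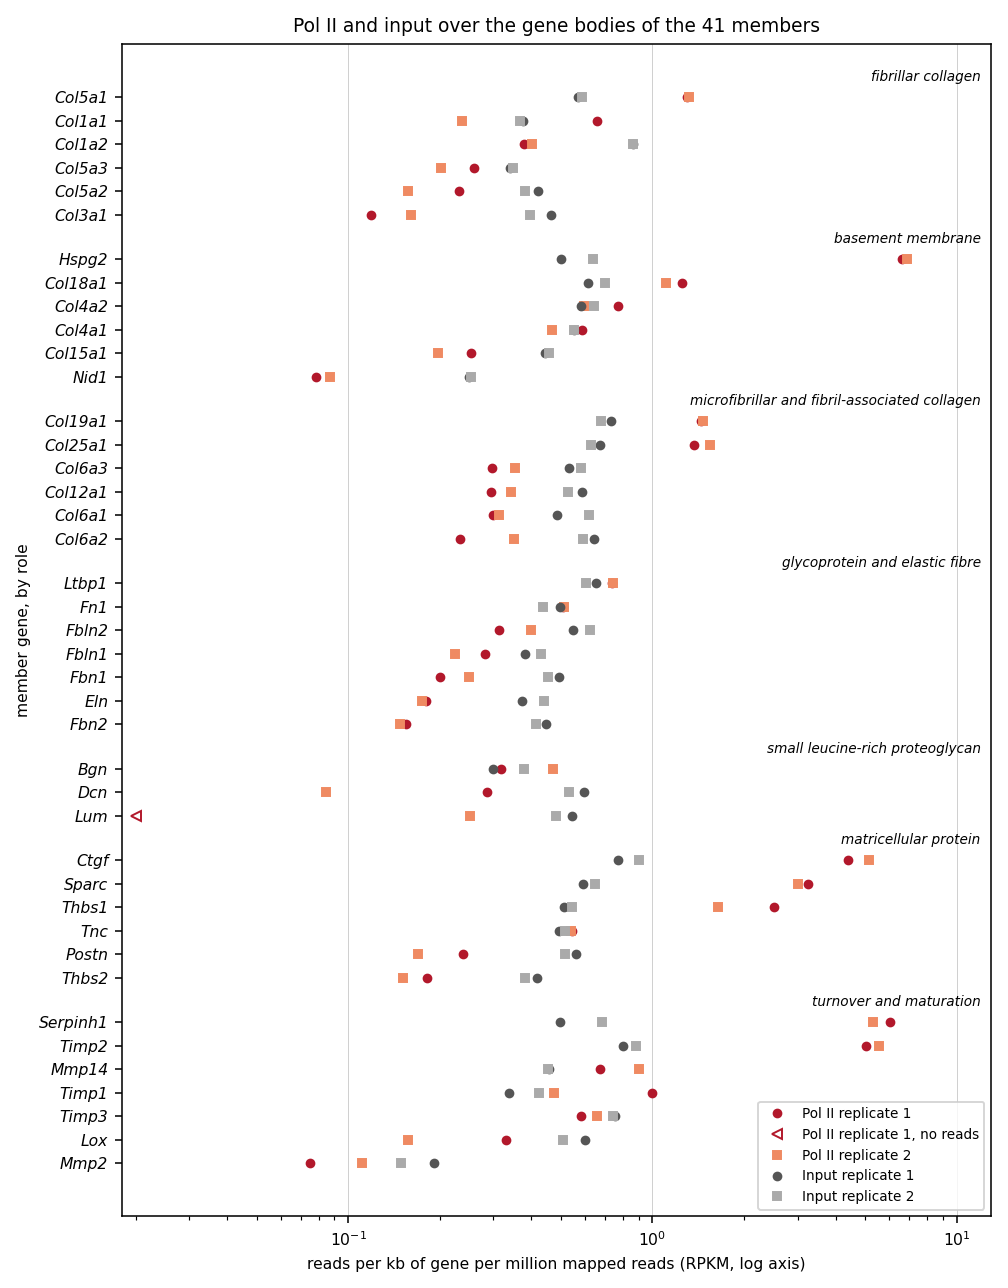
Reads per kb of gene per 1000000 mapped reads (RPKM, log axis) over the gene body of each of the 41 members, grouped by role, with 1 point for each Pol II and input library. Hspg2, Serpinh1, Timp2, Ctgf, Sparc and Thbs1 stand above all other members in both Pol II libraries, while most other members lie near or below their input. The open triangle marks Lum, which had 0 reads in Pol II replicate 1.

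Among the basement membrane genes, Hspg2, which encodes the heparan sulfate proteoglycan perlecan, had the highest level of Pol II of any member. Its gene body (chr4:137024634-137126544, plus strand) had 6.62 and 6.88 RPKM in Pol II replicates 1 and 2 against 0.501 and 0.638 in the inputs. The groups did not overlap, and the log2 ratio was 3.58 (SE 0.088, n = 2 libraries a group, adjusted p = 1.53e-15), above 98.6% of all genes tested. Hspg2 alone held 19.8% and 20.2% of the Pol II reads on the 41 members, against 2.59% and 3.35% of their input reads. Pol II extended along the whole gene: with the gene split into 10 equal segments, the ratio to input was 18.7 in the first and between 7.94 and 13.7 in each of the others.

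The other basement membrane genes divided into 3 outcomes. Col18a1, whose C-terminal fragment is endostatin, had 1.25 and 1.11 RPKM in Pol II against 0.615 and 0.697 in input, a log2 ratio of 0.83 (SE 0.104). A stretch of 7.72% of the gene is shared with Slc19a1, whose own log2 ratio was 1.52, and without the positions of other genes the value for Col18a1 was 0.76. Col4a1 and Col4a2, which encode the alpha chains of the main network collagen and lie head to head, overlapped their inputs. Col4a1 had 0.585 and 0.468 RPKM in Pol II and 0.554 and 0.551 in input (log2 ratio -0.11), and Col4a2 had 0.771 and 0.594 against 0.584 and 0.644 (log2 ratio 0.10). Neither was past the threshold by library size, whereas with background scaling both were higher, at log2 ratios of 1.33 for Col4a1 and 1.55 for Col4a2. Col15a1 (log2 ratio -1.05) and Nid1, which links laminin to collagen IV (log2 ratio -1.53), were lower than input by library size. With background scaling Col15a1 had a log2 ratio of 0.39 and Nid1 of -0.09, neither past the threshold.

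The fibrillar collagens, which make up most of the collagen of interstitial tissue, were higher in 1 of 6, against 39.9% of all genes. Col5a1, a regulatory chain that is built into thicker fibrils, had 1.30 and 1.32 RPKM in Pol II against 0.569 and 0.585 in input, with no overlap and a log2 ratio of 1.19 (SE 0.080, adjusted p = 9.65e-10). Its ratio stayed between 1.52 and 3.41 in all 10 segments of the 153 kb gene. Its partner chain Col5a2 did not follow, with 0.232 and 0.157 RPKM in Pol II against 0.420 and 0.381 in input (log2 ratio -1.13), and Col5a3 was not past the threshold (log2 ratio -0.61).

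The chains of collagens I and III, the usual markers of fibroblasts, were at or below input. Col1a1 had 17 and 11 reads in the Pol II libraries and 139 and 150 in the inputs, which is 0.657 and 0.237 RPKM against 0.376 and 0.368, so that Pol II replicate 1 lay above both inputs and replicate 2 below them (log2 ratio -0.05, SE 0.371). Col1a2 had 0.379 and 0.402 RPKM in Pol II against 0.862 and 0.866 in input, a log2 ratio of -1.11 (SE 0.221). Col3a1 had 0.119 and 0.161 RPKM against 0.465 and 0.397, a log2 ratio of -1.52 (SE 0.373). In both of these the Pol II libraries lay wholly below the inputs by library size, whereas with background scaling Col1a1 was higher (log2 ratio 1.404), and Col1a2, at 0.33, and Col3a1, at -0.08, were not past the threshold.

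Of the microfibrillar and fibril-associated collagens, Col19a1 and Col25a1 were higher and the others were not. Col19a1, a fibril-associated collagen known from muscle differentiation, had 1.44 and 1.47 RPKM in Pol II against 0.732 and 0.680 in input (log2 ratio 1.05, SE 0.064). Col25a1, a transmembrane collagen known for its part in the contact of motor nerves with muscle, had 1.37 and 1.54 RPKM against 0.673 and 0.628 (log2 ratio 1.18, SE 0.063). Both had no overlap between groups and are among the longest members, at 323 kb and 419 kb. In Col25a1 the ratio fell from 2.94 in the first segment of the gene to 1.77 in the last, and in Col19a1 from 2.96 to 1.72, so Pol II was found to the 3′ end of each.

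The 3 collagen VI genes, whose product anchors the basement membrane to the interstitial matrix and is mutated in congenital muscular dystrophy, had Pol II between 0.233 and 0.353 RPKM, below their inputs at 0.487 to 0.643. Col6a2 (log2 ratio -0.99) and Col6a3 (log2 ratio -0.74) were lower, and Col6a1 (log2 ratio -0.78) was not past the threshold. Col12a1 was lower too, at 0.294 and 0.342 RPKM against 0.587 and 0.526 (log2 ratio -0.77). With background scaling Col6a3 and Col12a1 were higher than input, at log2 ratios of 0.70 and 0.67.

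Of the 7 glycoprotein and elastic fibre genes, 1 was higher and 5 were lower by library size, against 39.9% and 24.1% of all genes. Ltbp1, which stores latent TGF-beta in the matrix, had 0.734 and 0.744 RPKM in Pol II against 0.650 and 0.605 in input (log2 ratio 0.24, SE 0.074, adjusted p = 0.00915). Its groups did not overlap, but the ratio was between 0.621 and 0.904 in the first 4 segments and between 1.24 and 1.54 in the rest of this 386 kb gene, and the call was lost without either Pol II library and with the median of all genes set to 0. Fn1, fibronectin, had 0.509 and 0.514 RPKM against 0.495 and 0.438 and was not past the threshold (log2 ratio 0.15). The fibrillins Fbn1 and Fbn2, elastin (Eln) and the fibulins Fbln1 and Fbln2 were lower, with log2 ratios from -1.50 for Fbn2 to -0.67 for Fbln2, and the call for Fbln1 was lost without Pol II replicate 2. With background scaling 5 of the 7 were higher and 0 lower, against 65.9% and 0.765% of all genes. The 5 were Ltbp1 at a log2 ratio of 1.68, Fn1 at 1.59, Fbln2 at 0.77, Fbln1 at 0.73 and Fbn1 at 0.41.

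The small leucine-rich proteoglycans, which bind collagen fibrils and limit their width, held the members with the lowest Pol II log2 ratios to input. Decorin (Dcn) had 0.287 and 0.085 RPKM in Pol II against 0.594 and 0.533 in input, a log2 ratio of -1.999 (SE 0.40). Lumican (Lum) had 0 and 5 Pol II reads against 86 and 84 input reads, a log2 ratio of -2.13 (SE 0.70), above only 2.24% of all genes, and the call was lost without Pol II replicate 1. Biglycan (Bgn), on the X chromosome, overlapped its input with 0.317 and 0.471 RPKM against 0.2998 and 0.379 (log2 ratio 0.32). Dcn and Lum were below 0 also with background scaling, at log2 ratios of -0.54 and -0.71, though not past the threshold.

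The matricellular proteins, which act on cells rather than carry load, held 3 of the 6 members with the highest levels. Ctgf, connective tissue growth factor, had 4.41 and 5.14 RPKM in Pol II against 0.772 and 0.903 in input (log2 ratio 2.55, SE 0.258). A non-coding gene on the other strand, Gm15270, shares 51.4% of Ctgf, and without those positions the log2 ratio was 1.46. The Ctgf ratio was between 8.27 and 18.4 in the first 5 segments and between 0.54 and 4.40 in the last 5, each resting on few reads. Sparc, a collagen-binding glycoprotein also called osteonectin, had 3.25 and 3.01 RPKM against 0.591 and 0.646 (log2 ratio 2.33, SE 0.125). Thbs1, which activates latent TGF-beta, had 2.51 and 1.64 RPKM against 0.510 and 0.543 (log2 ratio 1.87, SE 0.194). In all of these both Pol II libraries lay above both inputs. Tenascin C (Tnc) was near input (log2 ratio 0.11, with 67.1% of it shared with a non-coding gene), while Thbs2 and periostin (Postn) were lower, at log2 ratios of -1.22 and -1.42, and the call for Thbs2 was lost without Pol II replicate 2.

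Among the genes of turnover and maturation, Serpinh1 (Hsp47), the chaperone of procollagen, and Timp2, an inhibitor of matrix metalloproteinases, were the highest. Serpinh1 had 6.04 and 5.30 RPKM in Pol II against 0.498 and 0.682 in input (log2 ratio 3.24, SE 0.191, adjusted p = 1.50e-10). Timp2 had 5.05 and 5.55 RPKM against 0.803 and 0.882 (log2 ratio 2.66, SE 0.086, adjusted p = 5.14e-14). A stretch of 18.6% of Timp2 is shared with BC100451, on the same strand, and Timp2 stayed higher without the positions of other genes. Mmp14, a membrane-bound collagenase that also activates Mmp2, had 10 and 24 Pol II reads and a log2 ratio of 0.87 (SE 0.317, adjusted p = 0.0243), a call lost without Pol II replicate 2 and with the median of all genes set to 0, whereas Mmp2 had 3 and 8 reads and was not past the threshold. The inhibitors Timp1 and Timp3 lie wholly inside Syn1 and Syn3, on the other strand. Timp1 had 0.996 and 0.476 RPKM against 0.339 and 0.424 (log2 ratio 0.84, SE 0.476), and Timp3 had 0.582 and 0.656 against 0.752 and 0.744 (log2 ratio -0.24), neither past the threshold. The reads carried no strand of transcription, so the share of Timp1 and Timp3 in them cannot be told apart from that of their hosts. Lox, which cross-links collagen and elastin, was lower (log2 ratio -1.27), a call lost without Pol II replicate 2.

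**Figure D2:**
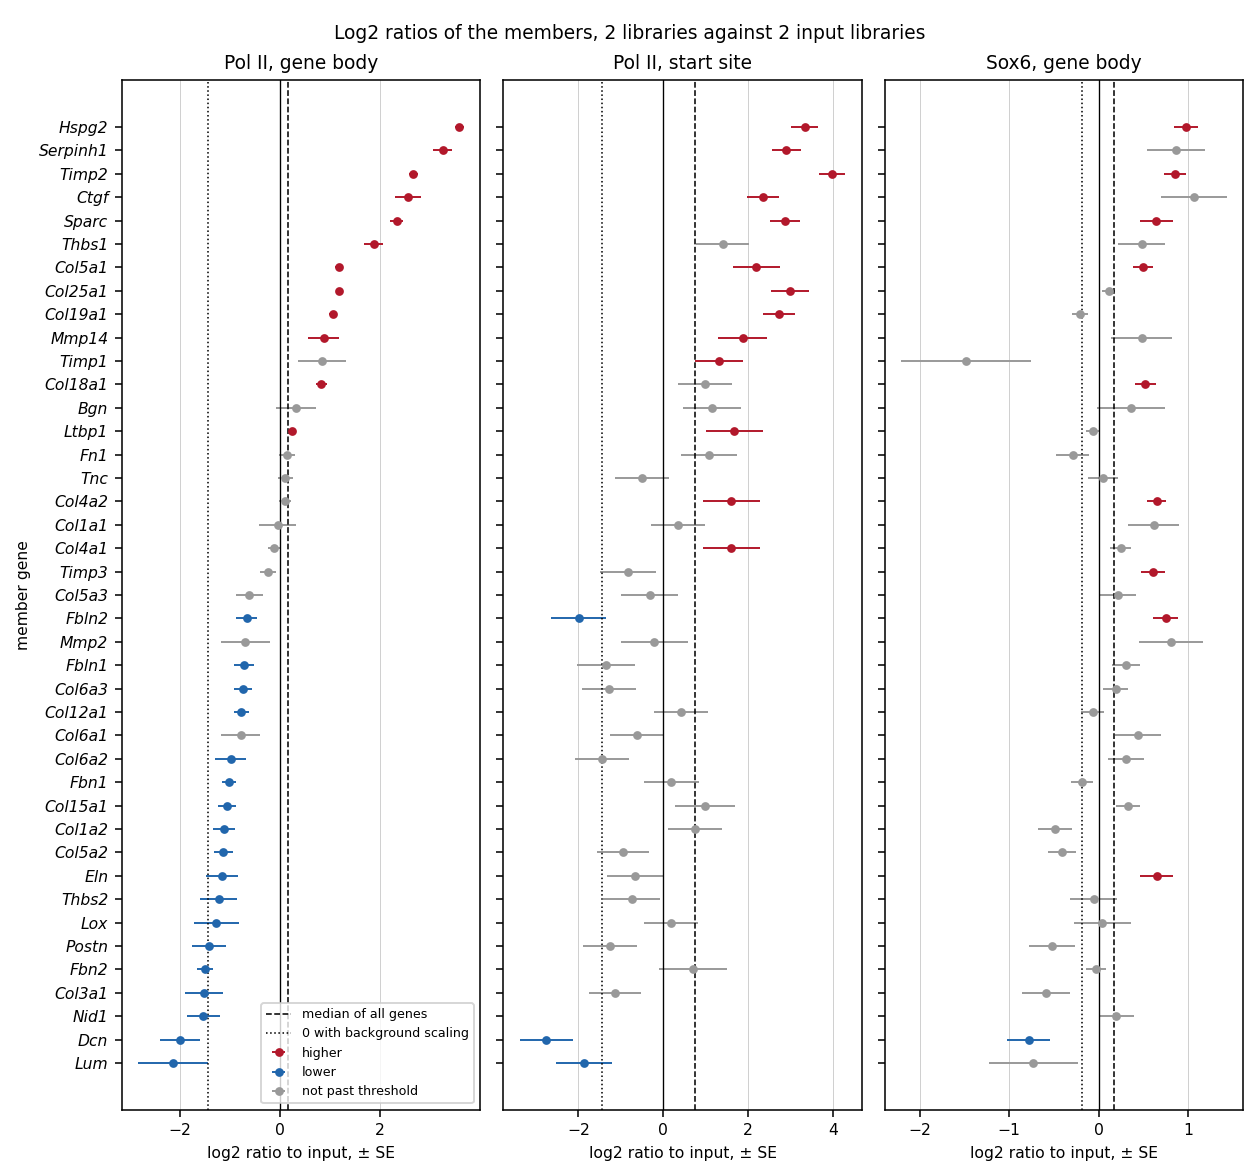
Log2 ratio to input with its standard error (horizontal axis) for each of the 41 members, ordered by the Pol II ratio over the gene body, for Pol II over gene bodies, Pol II within 1 kb of the start site and Sox6 over gene bodies. Red points were higher and blue points lower than input at an adjusted p under 0.05. The dashed line is the median of all genes and the dotted line is where 0 would fall with background scaling, so that 5 members, Fbn2, Col3a1, Nid1, Dcn and Lum, lie to its left for Pol II over gene bodies.

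Pol II at start sites, counted within 1 kb on each side, asks the same question without the weight of gene length. It was higher than input at 13 of the 40 members tested and lower at 3, against 36.8% and 4.38% of all genes. With background scaling the counts were 24 and 1, against 66.5% and 0.027%, and with the median of all genes set to 0 they were 8 and 10, against 24.2% and 15.3%. Nid1 was not tested, since its window held 0 and 1 input reads. The share of higher members was near that of all genes, and their median log2 ratio was 0.56 against 0.76. Of the 13, 10 were also higher over the gene body: Timp2, Hspg2, Col25a1, Serpinh1, Sparc, Col19a1, Ctgf, Col5a1, Mmp14 and Ltbp1.

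Timp2 had the largest start signal, with 27 and 51 Pol II reads against 22 and 31 in the far deeper inputs, which is 17.5 and 18.46 reads per 1000000 mapped reads (RPM) against 1.001 and 1.28 (log2 ratio 3.99, SE 0.311). Hspg2 followed with 11.7 and 15.6 RPM against 1.59 and 1.24 (log2 ratio 3.34). Col25a1 had 5.20 and 7.60 RPM against 0.683 and 1.03 (log2 ratio 2.99), and Col19a1 had 7.15 and 9.41 RPM against 1.32 and 1.28 (log2 ratio 2.74). These long collagen genes thus had larger log2 ratios at the start than over the body, a difference that was not tested. Per kb, the start window of Timp2 held 1.74 and 1.66 times the density of its body, that of Col19a1 2.48 and 3.21 times, and that of Hspg2 0.883 and 1.13 times.

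The lower part of the list rested on few reads. The start window shared by Col4a1 and Col4a2 had 4 and 3 Pol II reads against 9 and 21 input reads, and its log2 ratio of 1.60 (SE 0.672, adjusted p = 0.0421) was the same measurement for both genes, lost under 8 of 15 alternatives, among them without Pol II replicate 1 and without either input. Timp1, at 6 and 6 reads, had a log2 ratio of 1.32 (SE 0.562) and was lost under 5, among them without Pol II replicate 1 or input replicate 1. Ltbp1, at 4 and 3 reads, was lost under 6, among them without the same libraries as the Col4a window, and Mmp14, at 5 and 8 reads, under 2. The windows of Dcn and Fbln2 held no Pol II read in either library, and neither did that of Lum. These 3 were lower than input, at log2 ratios of -2.76, -1.997 and -1.87, and all were lost when either Pol II library was left out. The windows of Col1a1, Col1a2 and Col3a1 held 1 to 4 Pol II reads in each library and were not past the threshold by library size. With background scaling the windows of Col1a1 (log2 ratio 1.81, adjusted p = 0.00852) and Col1a2 (log2 ratio 2.20, adjusted p = 0.00166) were higher than input, and that of Col3a1, at 0.30, was not past the threshold.

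**Figure D3:**
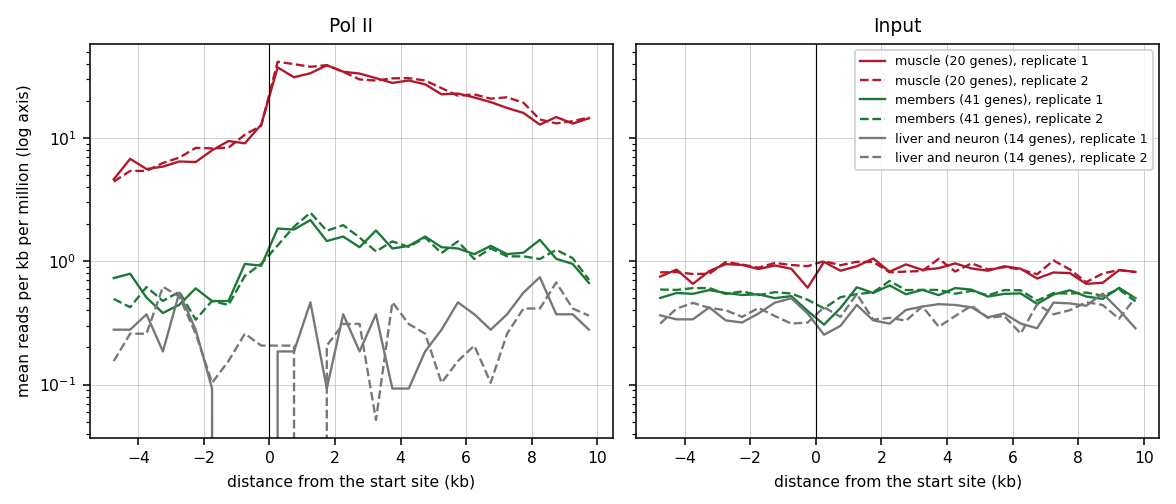
Mean reads per kb per 1000000 mapped reads (log axis) in 500 bp bins by distance from the start site, for the 41 members, 20 muscle genes and 14 liver and neuron genes, in each Pol II and each input library. In the first 500 bp from the start, members had 1.84 and 1.34 in Pol II against 0.306 and 0.414 in input, muscle genes had 37.2 and 41.4, and liver and neuron genes had 0.186 and 0.207; a bin without reads leaves the axis.

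**Figure D4:**
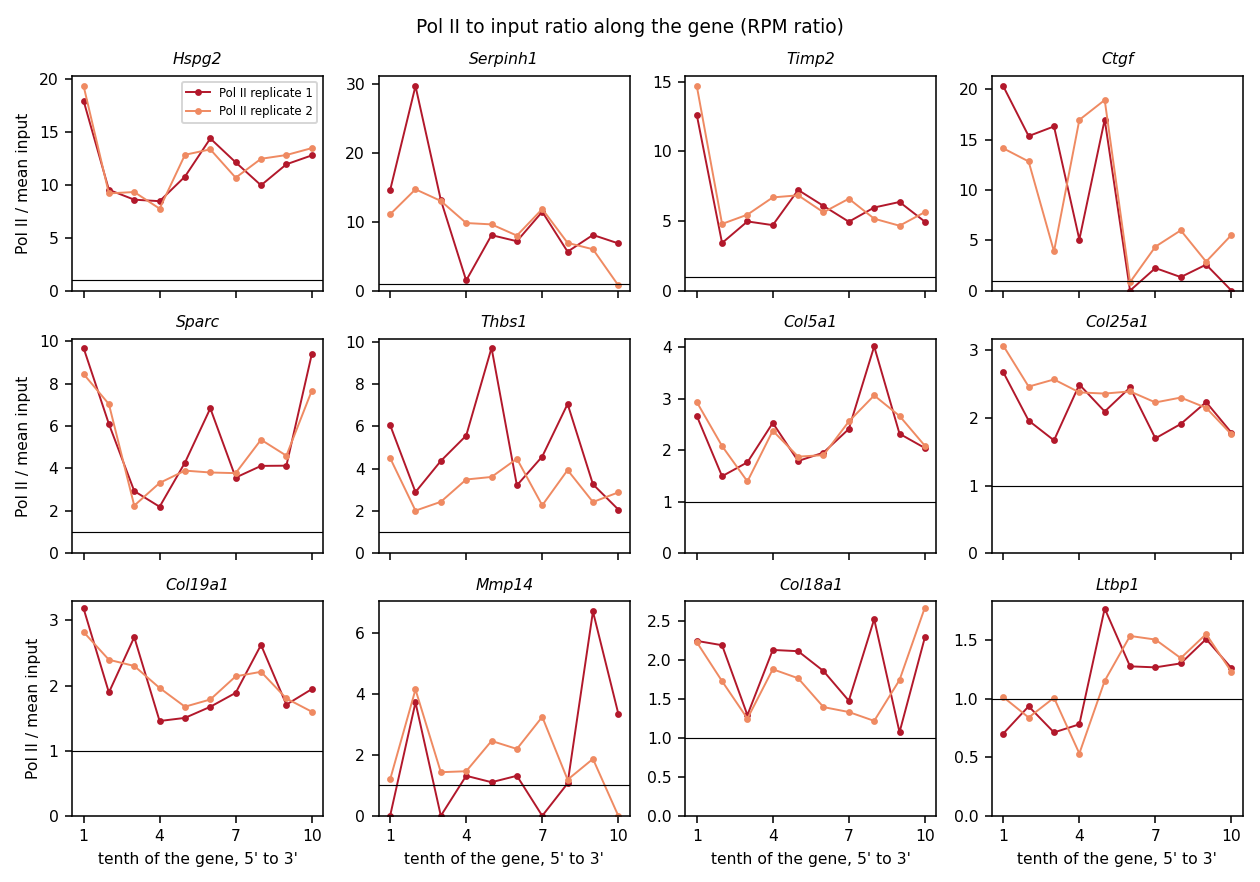
RPM in Pol II divided by the mean RPM of the inputs in each of 10 equal segments of the gene, from the 5′ to the 3′ end, for the 12 members with higher Pol II over the gene body, with a line for each Pol II library. The vertical scale differs between panels and starts at 0, and the horizontal line marks a ratio of 1. Hspg2 lies between 7.94 and 18.7 throughout by the pooled ratio, and Ltbp1 is near 1.

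The authors' own Pol II peaks, called in each replicate separately, lay in 6 members in replicate 1 and 8 in replicate 2, against 11.6% and 15.9% of all genes. Among genes at least as long as the median member the shares were 15.7% and 20.9%, against 4 and 5 of the 21 members of that length. Hspg2 held 39 and 56 of them, Timp2 12 and 21, Serpinh1 2 and 4, Sparc 2 and 3, Col19a1 3 and 8, and Col18a1 1 and 1. Col25a1 with 4 peaks and Ctgf with 1 had them in replicate 2 alone, the deeper Pol II library. The peaks were called on the reads described above and are not independent of them.

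Genes that share pathways or cell types with the members were set beside them as fixed lists. Of the 26 genes of collagen modification and processing, 13 were higher for Pol II over the gene body and 8 lower, with a median log2 ratio of 0.73. The highest was Ppib, the prolyl isomerase cyclophilin B, at 4.12 and 6.16 RPKM against 0.662 and 0.721 (log2 ratio 2.95), and the lowest was Tll1, a procollagen proteinase (log2 ratio -1.78). Of 15 TGF-beta signalling genes, 10 were higher and 1 was lower (median 0.78), led by the ligand Tgfb3 at a log2 ratio of 3.37. Of the 44 other matrix genes, 7 were higher and 19 lower, with a median of -0.78, and they ran from Efemp2 at 2.48 to Col11a1 at -2.19. With background scaling 21 of the collagen modification genes were higher and 0 lower, all 15 TGF-beta genes were higher, and 17 of the other matrix genes were higher and 1 lower. Of all genes, 39.9% were higher and 24.1% lower by library size, and 65.9% and 0.765% with background scaling. The collagen modification genes had a higher median than the members, a difference that was not tested.

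How much non-muscle chromatin the cultures held bears on every matrix gene that fibroblasts express. Of 14 fibroblast markers, 13 could be tested. By limma 0 were higher and 7 were lower than input (median log2 ratio -1.03), against 39.9% and 24.1% of all genes. With background scaling 3 were higher, against 65.9% of all genes. The list summed to 4.54 and 4.41 RPKM in Pol II against 5.94 and 6.45 in input. Its highest member was S100a4 (log2 ratio 0.78, adjusted p = 0.153), its lowest was Fap (log2 ratio -2.12), and Twist1 had no Pol II read. Liver genes, which neither muscle nor fibroblasts use, had a median of -1.67 with 0 of 7 higher and 4 lower. Neuron genes had a median of -1.10 with 1 of 7 higher and 3 lower, and endothelial genes -1.06 with 0 of 8 higher and 6 lower. The higher neuron gene was Syn1 (log2 ratio 0.81), inside which Timp1 lies. With background scaling 0 of 7 liver, 2 of 7 neuron and 3 of 8 endothelial genes were higher. Col1a2, at -1.11, and Col3a1, at -1.52, lay between the highest and lowest gene of the fibroblast, neuron, endothelial and liver lists, while Dcn, at -1.999, lay below all neuron and endothelial genes, and Lum, at -2.13, below all genes of these lists except in liver. Cartilage markers were higher in 2 of 10 and lower in 4, with a median of -0.79. Smooth muscle markers were higher in 2 of 5 and lower in 2, with a median of -0.12, and ran from Acta2 at 4.55, a gene that young muscle fibres also use, to Myocd at -1.29. Of 7 blood genes, 5 were tested. Cd68 was higher, at a log2 ratio of 3.16, Ptprc was lower, at -1.85, and Hba-a1 and Hbb-b1 had no Pol II read. Genes with fewer than 20 input reads were not tested. Of all 23030 genes, 2475 had no Pol II read, so a lack of reads at these genes or at Twist1 cannot show that a cell type was absent. With background scaling 4 cartilage, 4 smooth muscle and 3 blood genes were higher. The part of non-muscle cells in the members' signal was not tested.

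Sox6 over gene bodies and start sites was used to ask whether the factor's reads gathered on the matrix genes themselves. Over gene bodies 9 of 41 members were higher than input and 1 was lower, against 7.24% and 1.58% of all genes, a difference that was not tested. The median log2 ratio was 0.25 against 0.16. Members were longer, with a median of 49.1 kb against 14.9 kb for all genes, and longer genes hold more reads for a call. Muscle genes were higher in 12 of 20 and housekeeping genes in 2 of 6 in the same comparison. Background scaling raised the median gene by 0.19 here and gave 14 higher members and 0 lower, against 16.4% and 0.342% of all genes. The differences were small. Among members past the threshold Hspg2 led with 1.03 and 1.28 RPKM in Sox6 replicates 1 and 2 against 0.501 and 0.638 in input (log2 ratio 0.98, SE 0.134), followed by Timp2 with 1.52 and 1.51 RPKM against 0.803 and 0.882 (log2 ratio 0.85, SE 0.125). Ctgf, at a log2 ratio of 1.06 (SE 0.366), and Serpinh1, at 0.87 (SE 0.323), were not past it. Fbln2 had 0.959 and 1.02 RPKM against 0.547 and 0.625 (log2 ratio 0.75), although its Pol II was lower than input by library size. Col4a2, Eln, Sparc, Timp3, Col18a1 and Col5a1 were higher at log2 ratios of 0.50 to 0.65. The calls of Eln and Sparc were lost without either Sox6 library, and those of Timp3, Col18a1 and Col5a1 without Sox6 replicate 2. With the median of all genes set to 0 the calls of Eln, Sparc, Col18a1 and Col5a1 were lost. Dcn was lower at -0.79, a call lost under 6 of 15 alternatives, among them without either Sox6 library. Without Sox6 replicate 2, 4 members were higher, and with the median of all genes set to 0 there were 5 higher and 4 lower, against 2.76% and 4.26% of all genes.

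At start sites Sox6 was higher than input at 0 of 40 members and lower at 0, against 0.988% and 0.018% of all genes. Limma with a trend, in place of voom weights, also called 0 members. With background scaling 2 were higher and 0 lower, against 2.41% and 0.0135% of all genes. The smallest adjusted p was 0.0918, for Timp2, whose window held 9 and 6 Sox6 reads. No window held more than 10 reads in a Sox6 library. Of the 20 muscle genes, 5 were higher in the same comparison.

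Common Sox6 peaks lay in or within 20 kb of 6 of the 41 members. Length bears on this count: among the 4900 genes at least as long as the median member, 9.29% had such a peak, against 5 of the 21 members of that length. The 9 peaks were at Col25a1 (3), Col4a2 (2), Ltbp1, Timp2, Timp3 and Col1a2. All but Col1a2 held peaks inside the gene, each in an intron, and none of the 9 lay within 1 kb of its member's start site.

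The strongest was in intron 2 of Col25a1, 62.0 kb past its start. It had 40 and 33 Sox6 reads in 450 bp against 8 and 23 input reads, or 13.4 and 22.5 RPM against 0.364 and 0.949 (log2 ratio 4.92, SE 0.419). A second peak in intron 2, 82.6 kb past the start, had 16 and 12 Sox6 reads against 9 and 9, and another, in intron 30, had 13 and 6 against 15 and 9. These are the peaks of a gene whose Sox6 reads over the whole 419 kb were not past the threshold (0.693 and 0.713 RPKM against 0.673 and 0.628).

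The Col4a2 peak in intron 20 had 18 and 15 Sox6 reads against 7 and 13 (log2 ratio 4.14), and the one 8.15 kb past its end, to which Rab20 is the nearest gene, had 19 and 13 against 8 and 15 (log2 ratio 3.92). Ltbp1 had 21 and 8 against 20 and 8 in intron 5 (log2 ratio 3.57). Timp2 had 15 and 14 against 11 and 27 in intron 1, 5.87 kb past its start (log2 ratio 3.14). Timp3 had 14 and 8 against 11 and 14 in an intron that also lies inside Syn3 (log2 ratio 3.19). The weakest was 19.8 kb past the end of Col1a2, with 7 and 9 against 8 and 15 (log2 ratio 2.65). In all 9 windows both Sox6 libraries lay above both inputs in RPM, as calling peaks in both replicates favours. The share of all common peaks without overlap was not counted. The peaks were called from these reads, so their height is a description: over all 1066 common peaks the median log2 ratio was 3.45 with quartiles of 2.96 and 4.01, and 96.6% were past the threshold, as were all 9 at members.

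**Figure D5:**
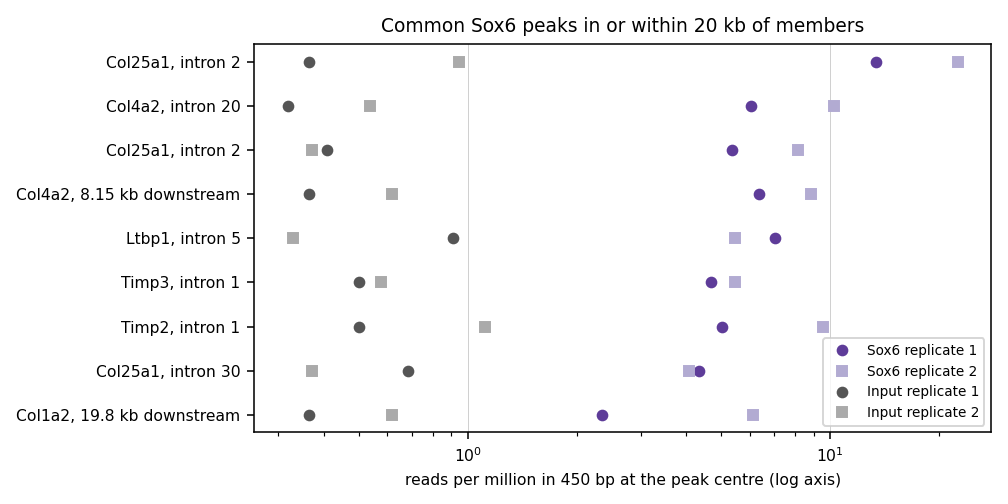
Reads per 1000000 mapped reads (log axis) in 450 bp at the centre of the 9 common Sox6 peaks in or within 20 kb of members, with 1 point for each Sox6 and input library, ordered by log2 ratio. Sox6 libraries lie between 2.35 and 22.5 and inputs below 1.2 at every peak.

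Reads of the other replicate, which did not choose the peak, gave a check on the peaks of each list. Peaks of replicate 1 lay in or within 20 kb of 11 members, against 9.6% of all genes, and those of replicate 2 of 7 members, against 6.64%. Among genes at least as long as the median member the shares were 20.3% and 13.8%, against 9 and 6 of the 21 members of that length. Of 20 replicate 1 peaks in or near members, 10 were higher than input in replicate 2 by an exact binomial test of 1 library against 1, adjusted over all peaks of that list, against 67.0% of all 2888 peaks. Of 11 replicate 2 peaks, 10 were higher in replicate 1, against 84.4% of 1734. The remaining peak, at Col1a2, had 4 Sox6 reads against 10 input reads in replicate 1, or 1.34 against 0.455 RPM. It overlaps the common peak of Col1a2, where the replicate 1 peak was higher in replicate 2. Replicate 2 is the shallower Sox6 library, and the test covers counting error alone.

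Pol II over the gene bodies of the 6 members with a common Sox6 peak depended on the scaling. By library size Col25a1, Timp2 and Ltbp1 were higher than input, Col4a2 and Timp3 were not past the threshold, and Col1a2 was lower. Of all genes, 39.9% were higher and 24.1% lower. With background scaling 5 of the 6 were higher, against 65.9% of all genes, and Col1a2, at a log2 ratio of 0.33, was not past the threshold. Hspg2, Serpinh1, Ctgf, Sparc and Thbs1, the other members with high levels of Pol II, had no common Sox6 peak in or within 20 kb. Such a peak lay at 4.29% of all genes, and whether peaks and Pol II go together was not tested.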

How the data were processed

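The authors mapped single-end reads to mm9 with Bowtie 0.12.5, per the labels, and called Sox6 and Pol II peaks with SISSRs in each replicate; the score of the deposited peak lists was not used. The deposited read positions are one line per mapped read, 36 or 39 bases long, and 2.96% to 7.88% of reads in a library repeated a position. Libraries were made with 18 PCR cycles and cut at 300 to 600 bp. Here, reads were counted by their 5′ end over gene bodies, within 1 kb of start sites and in 450 bp at peak centres, on GENCODE models of mm9 (longest coding transcript) with RefSeq names (23030 genes, of which 20480 matched by symbol and 2550 by synonym). Genes needed 20 input reads over the body or 5 at the start. Counts, with 0.5 reads added, were compared with limma 3.58.1 in R 4.3.3 (voom weights, library sizes, Benjamini-Hochberg at 0.05, all genes). Same-numbered libraries did not deviate together (correlations 0.0018 to 0.071 over genes). The text gives values per library for members past the Pol II threshold, members with a common Sox6 peak and Col1a1, Col1a2 and Col3a1, and other members by their ratios; values per library of members outside this rule were added after they were seen. Genes outside the set are named where they overlap or neighbour a member or its peak, or as the highest or lowest of a list. Alternatives covered scaling, filters, windows, repeated positions and each left-out library. Members and lists were chosen with earlier results of these data known. Scripts were tested on simulated data.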

Additional observations from a re-analysis of the deposited data

How the results depend on the processing

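For Pol II over gene bodies, 10 members (Hspg2, Serpinh1, Timp2, Ctgf, Sparc, Thbs1, Col5a1, Col25a1, Col19a1 and Col18a1) were higher under all 15 alternatives, and the count of higher members was 10 to 12 in all of them except background scaling, where it was 26. Lower members numbered 15 to 21 except under background scaling, where there were 0, and 13 of the 18 turned positive. Their log2 ratios were then 0.67 for Col12a1, 0.39 for Col15a1, 0.33 for Col1a2, 0.32 for Col5a2, 0.45 for Col6a2, 0.70 for Col6a3, 0.29 for Eln, 0.73 for Fbln1, 0.77 for Fbln2, 0.41 for Fbn1, 0.17 for Lox, 0.024 for Postn and 0.22 for Thbs2. Of the 11 members not past the threshold, 9 were then higher: Timp1 at 2.29, Bgn 1.75, Fn1 1.59, Tnc 1.55, Col4a2 1.55, Col1a1 1.404, Col4a1 1.33, Timp3 1.197 and Col5a3 0.84. At start sites background scaling gave 24 higher and 1 lower, setting the median of all genes to 0 gave 8 and 10 (24.2% and 15.3% of all genes), adding the same RPM gave 5 lower and limma with a trend 1 lower. The start calls of Col4a1, Col4a2, Ltbp1 and Timp1 were lost with the median set to 0 and with the same RPM added, and that of Mmp14 with the median set to 0 and with 500 bp on each side. Leaving out 1 library gave 9 to 15 higher and 0 to 5 lower, and with 500 bp on each side Fbln2 had a log2 ratio of 0.17. For Sox6 over gene bodies background scaling gave 14 higher and 0 lower (16.4% and 0.342% of all genes), and setting the median to 0 gave 5 and 4 (2.76% and 4.26%). The lower count, 1, became 0 with repeated positions counted once, with all 6 libraries and with the first 1 kb left out. Leaving out 1 library gave 4 to 12 higher and 0 to 4 lower. Sox6 at start sites gave 2 higher members with background scaling (2.41% of all genes) and 0 to 2 when 1 library was left out, the 2 without Sox6 replicate 1. With the replicate number as a block there were 12 higher and 20 lower members for Pol II over gene bodies, 12 and 3 at start sites, where Timp1 was lost, and 12 and 4 for Sox6 over gene bodies. The labels do not say whether a number marks a shared experiment, and libraries of the same number did not deviate together. The study's methods describe independent ChIP experiments for each antibody, with the input of each used in peak calling. They do not say which numbered libraries belong together. Replicate 1 peaks lay at 11 members, against 9.6% of all genes and 20.3% of genes at least as long as the median member. The median Pol II level of members, 0.39 RPKM, was 0 in the authors' peaks alone and -0.113 after subtracting input. All 9 common peaks stayed higher than input under their 10 alternatives. Where 1 Pol II or Sox6 library was left out, the lone library was assumed to vary like the inputs. Member start windows held at most 10 Sox6 reads, and the causes of these changes were not tested. Beside the main fit, shares of all genes called are given for background scaling and the median set to 0 alone. Counts of members under the other settings describe how the calls held and do not set members against all genes.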
